A study of Homo sapiens with 4 samples.

Results

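The genes described here encode the proteins that license replication origins and run the replication fork. A list of 50 symbols was taken, from the origin recognition complex to the fork protection factors, and a gene was kept when its mean over the 4 libraries was at least 1 FPKM (fragments mapped, scaled to transcript length and library size). All 50 were kept, among 12260 genes at that level and 26255 symbols in the deposited table, so no member lay outside the threshold. The members nearest to it were CLSPN, with a mean of 1.87 FPKM, and POLA1, with a mean of 2.53 FPKM. The cells were TOV21G, a human line from an ovarian clear cell carcinoma, and each group was 1 culture of that line with 1 poly(A) library. The first culture received As2O3 (arsenic trioxide, a thiol-reactive drug) at 1 µM with GSK458, an inhibitor of the growth kinases PI3K and mTOR, at 0.1 µM. The second received GSK458 alone at 0.1 µM, the third As2O3 alone at 1 µM, and the fourth was the control. The treated cultures are labelled with 48 h, and the control's label gives no time.

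A replication origin is licensed in G1, when the origin recognition complex (ORC) with CDC6 and CDT1 loads the ring-shaped helicase of MCM2 to MCM7 onto DNA. Geminin, encoded by GMNN, binds CDT1 and stops a second loading in S phase. The kinase of CDC7 and DBF4, with cyclin-dependent kinases, then recruits CDC45 and the GINS complex, and the active helicase unwinds DNA for polymerases alpha, delta and epsilon. Many of these genes are known targets of E2F transcription factors, which drive the entry into S phase of dividing cells, and MCM proteins are common markers of proliferating tumour cells.

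With 1 library in each group and no replicate, no test was run, no value has an error, and every difference describes these libraries. Differences are given as log2(FPKM + 1) in one library minus the other, a scale that understates those of low genes, and at least 2-fold means a difference of at least 1 either way. The number of reads is unknown, since FPKM keeps none. The steps between low values put the library size used in the scaling at 85.8% of the control's for both drugs, 109% for GSK458 and 96.3% for As2O3. This size need not equal the number of reads. The cell line's labels were set against marker genes. PAX8, a transcription factor of tumours of the female genital tract, stood at 88.7 FPKM with both drugs, 83.6 with GSK458, 149 with As2O3 and 96.8 in the control, whereas NAPSA, a marker of clear cell carcinoma, was between 0.665 and 1.06 FPKM and EPCAM between 0.608 and 1.71 FPKM. Of 13 markers of fibroblasts, immune and endothelial cells, COL1A1 alone had a mean of 1 FPKM or more, and PTPRC, CD3E and LUM were listed at 0 in every library. In GENCODE 29, used for names alone, 7 members have pseudogenes named after them (DBF4, PCNA, RFC3, RFC5, POLD2, FEN1 and RPA2), and exons of 5 (POLA2, PRIM1, POLD1, POLD3 and TIPIN) overlap another gene on the same strand. Exons of 15 members, MCM7 among them, overlap a gene on the opposite strand. The labels and notes do not say how reads of such genes were shared out, so these values are uncertain.

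Summed over the 50 genes, the level was 418 FPKM with both drugs, 392 with GSK458, 924 with As2O3 and 1008 in the control. Both libraries with GSK458 were thus far below the others, at 41.5% of the control sum with both drugs and 38.9% with GSK458, against 91.8% with As2O3. In RNA from a whole culture, fewer cells in S phase and less of each message per cell cannot be told apart. The median member stood at 5.99 FPKM with both drugs, 5.26 with GSK458, 12.1 with As2O3 and 12.5 in the control. The lowest was CLSPN at 0.632 FPKM with both drugs and 0.311 with GSK458, POLA1 at 2.48 with As2O3 and CLSPN at 3.88 in the control. With both drugs 2 members were under 1 FPKM and with GSK458 6, against none in the other libraries. The control was led by the clamp PCNA (101 FPKM), the polymerase delta subunit POLD2 (96.3 FPKM) and MCM7 (71.3 FPKM).

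**Figure D1:**
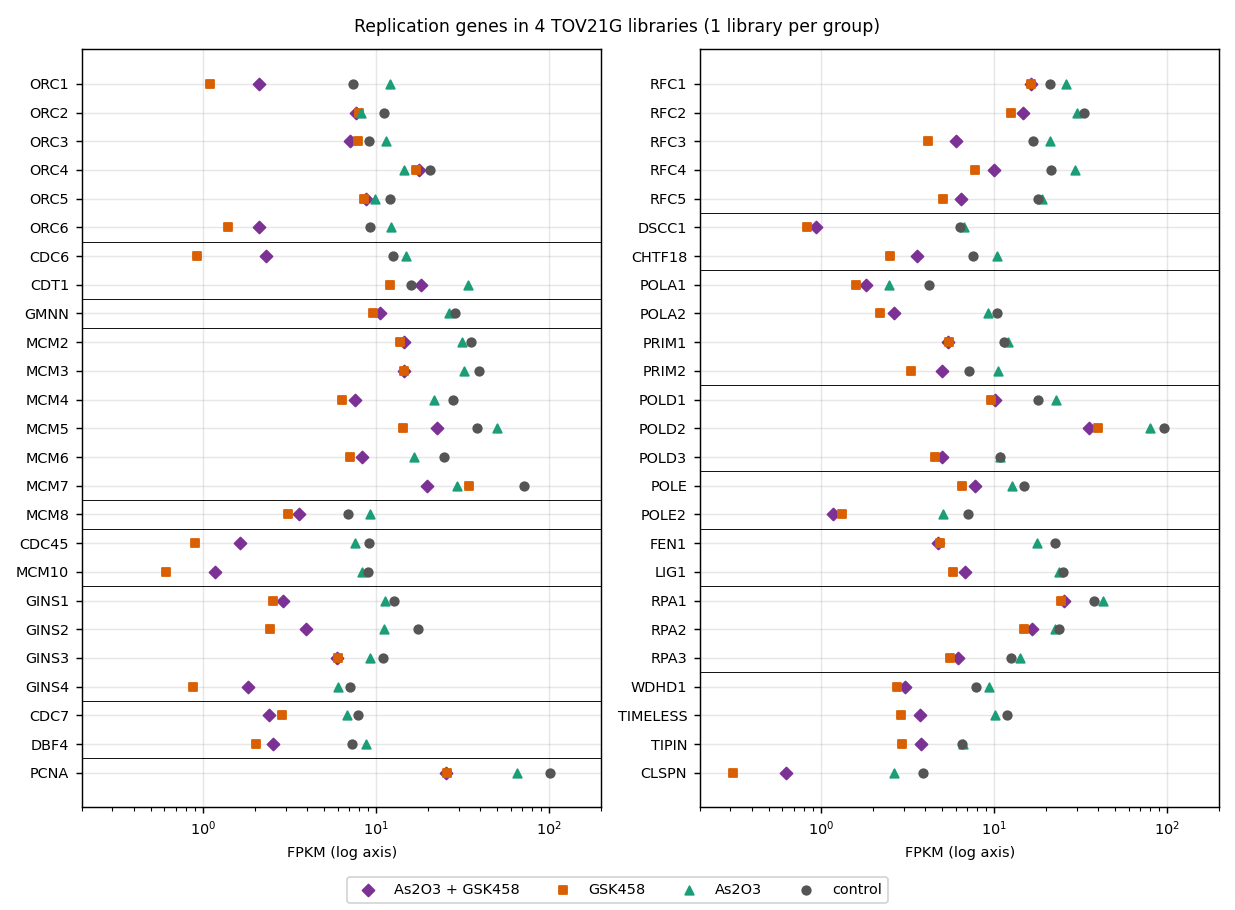
FPKM of each of the 50 replication genes (log axis) in the library with both drugs (diamonds), GSK458 (squares), As2O3 (triangles) and control (circles), 1 library per group, with thin lines between roles. The 2 libraries with GSK458 lie left of the control for nearly every gene (all but CDT1 with both drugs), and ORC2 to ORC5, CDT1, RFC1, RPA1 and RPA2 show the narrowest gaps between GSK458 and the control.

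GSK458 against the control, 1 library each, is the first reading of the kinase inhibitor at the level of RNA. All 50 members were lower with GSK458 (50.5% of all genes were), with a median difference of −1.33 against −0.005 over all 12260 genes. Of the members 36 were at least 2-fold lower, where 3.87% of all genes were, and 0 were at least 2-fold higher, where 2.35% of all genes were. Set against As2O3 alone, the library with both drugs gave a second reading of GSK458 that shares no library with the first. There 49 of 50 members were lower (52.2% of all genes), with a median of −1.15 against −0.022 over all genes. The difference was at least 2-fold for 33 of them (4.27% of all genes), and no member was 2-fold higher (2.28% of all genes). Both readings had 30 members at least 2-fold lower in common, which is 83.3% of the 36 in the first and 90.9% of the 33 in the second. Over all genes the 2-fold lower calls in common were 64.4% of the first and 58.4% of the second. Across the 50 genes, which are not independent replicates, the differences of both readings correlated with a Pearson's r of 0.85 and a Spearman's rho of 0.87, against 0.62 and 0.61 over all genes. For 35 of the 50 members (70%) the difference was nearer 0 in the presence of As2O3, against 48.5% of all genes.

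Markers of dividing cells moved with the members. All 12 of a list of mitotic and other cell cycle genes were at least 2-fold lower with GSK458, with a median difference of −3.05, and again with both drugs against As2O3, with a median of −2.45. The proliferation antigen MKI67, for example, stood at 7.21 FPKM with both drugs, 2.08 with GSK458, 33.6 with As2O3 and 31.7 in the control. These markers were low in both libraries with GSK458 as the members were, and their part in the members' differences was not tested.

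**Figure D2:**
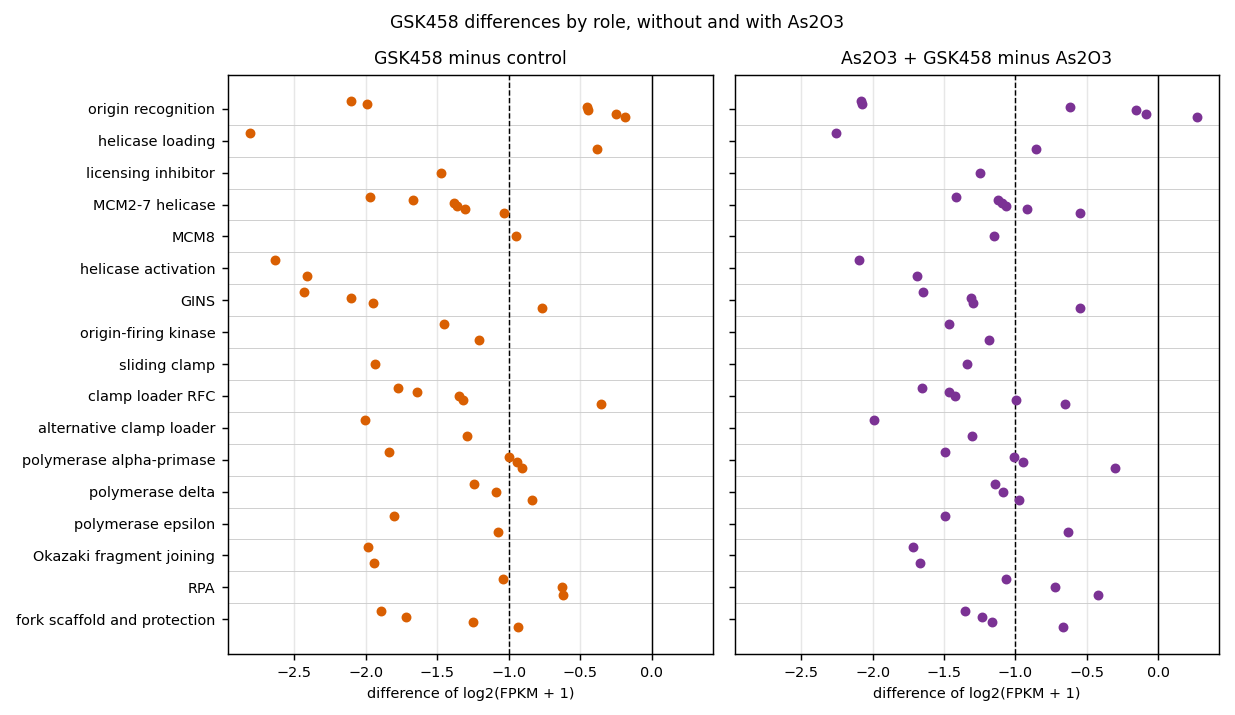
Difference of log2(FPKM + 1) for the members of each role (1 point per gene), on the left GSK458 minus control and on the right both drugs minus As2O3. The dashed line marks a 2-fold lower level. Helicase activation factors lie farthest left with medians of −2.53 and −1.89, while the ORC subunits split into a low pair, ORC1 and ORC6, and a group near 0.

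Promoter sequences were examined because the members moved together. RefSeq windows of 300 bases on GRCh38.p14, 250 before and 50 after each annotated gene start, were found for 43 members, 9 of them with more than 1 window. DSCC1, RPA2, MCM5, GINS4, POLD3, RPA3 and MCM4 had no entry. The search was for the letters of an E2F site (TTTCCCGC, TTTGGCGC, TTTCGCGC or TTTGCCGC), of the CCAAT box bound by NF-Y, and of the cell cycle element CHR (TTTGAA or TTCGAA), each on both strands, counting a gene when any window held them. E2F letters were in the windows of 22 of 43 members (51.2%), against 6.85% of the 9232 genes that passed the FPKM threshold and 3.99% of all 27305 genes in the table. CCAAT letters were in 26 of 43 (60.5%), against 43.6% and 39.7%. CHR letters were in 2 of 43, MCM6 and DBF4 (4.65%), against 14.8% and 19.5%. Among the dividing-cell markers the letters were distributed otherwise, with E2F letters in 1 of 10 genes, CCAAT in 10 of 10 and CHR in 7 of 10. A match is a description of these letters, not of a bound site. A window without them may still hold a site spelled in other letters.

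Windows are printed 5′ to 3′ on the gene's strand for the 4 members with the lowest difference with GSK458 on the log2(FPKM + 1) scale (CDC6, MCM10, GINS2, CDC45) and the 2 nearest 0 (ORC3, ORC4). CDT1 and MCM7, chosen after their values were seen because they differed most with As2O3, follow. Capitals mark E2F letters (or their reverse complement, such as GCGGGAAA) and CCAAT or its reverse complement ATTGG. For CDC45, ORC4 and MCM7, which have several windows, the first in the table is shown.
CDC6 (chr17:40287629-40287928, plus strand): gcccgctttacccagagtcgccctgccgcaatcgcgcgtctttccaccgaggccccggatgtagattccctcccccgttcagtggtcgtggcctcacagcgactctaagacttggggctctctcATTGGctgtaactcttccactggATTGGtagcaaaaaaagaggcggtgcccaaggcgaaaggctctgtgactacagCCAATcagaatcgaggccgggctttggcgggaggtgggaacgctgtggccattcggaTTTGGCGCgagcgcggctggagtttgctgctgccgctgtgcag
MCM10 (chr10:13161308-13161607, plus strand): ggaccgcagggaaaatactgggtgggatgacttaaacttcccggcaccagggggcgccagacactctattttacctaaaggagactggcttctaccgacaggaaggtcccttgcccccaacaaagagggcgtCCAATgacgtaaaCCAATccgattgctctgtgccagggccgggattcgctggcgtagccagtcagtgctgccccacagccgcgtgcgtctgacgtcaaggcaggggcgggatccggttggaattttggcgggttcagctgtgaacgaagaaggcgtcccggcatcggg
GINS2 (chr16:85688905-85689204, minus strand): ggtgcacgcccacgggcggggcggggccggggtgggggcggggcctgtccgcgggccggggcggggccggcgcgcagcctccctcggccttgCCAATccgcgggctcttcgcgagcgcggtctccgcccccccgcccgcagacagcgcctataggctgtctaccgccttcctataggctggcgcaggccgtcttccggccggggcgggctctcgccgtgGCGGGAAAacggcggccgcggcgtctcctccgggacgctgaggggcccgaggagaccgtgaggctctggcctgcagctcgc
CDC45 (chr22:19479670-19479969, plus strand): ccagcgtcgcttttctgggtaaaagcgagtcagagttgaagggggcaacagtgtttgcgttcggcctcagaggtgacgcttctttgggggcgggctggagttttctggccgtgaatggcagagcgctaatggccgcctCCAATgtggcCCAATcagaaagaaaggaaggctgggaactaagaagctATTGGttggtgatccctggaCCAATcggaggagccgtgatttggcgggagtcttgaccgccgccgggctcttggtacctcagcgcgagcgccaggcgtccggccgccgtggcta
ORC3 (chr6:87589885-87590184, plus strand): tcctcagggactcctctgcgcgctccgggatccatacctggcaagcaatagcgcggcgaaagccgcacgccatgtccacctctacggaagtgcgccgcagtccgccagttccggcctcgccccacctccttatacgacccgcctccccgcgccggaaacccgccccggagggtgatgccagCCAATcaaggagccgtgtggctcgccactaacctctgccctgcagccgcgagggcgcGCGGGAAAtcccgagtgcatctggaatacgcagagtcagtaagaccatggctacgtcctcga
ORC4 (chr2:148021502-148021801, minus strand): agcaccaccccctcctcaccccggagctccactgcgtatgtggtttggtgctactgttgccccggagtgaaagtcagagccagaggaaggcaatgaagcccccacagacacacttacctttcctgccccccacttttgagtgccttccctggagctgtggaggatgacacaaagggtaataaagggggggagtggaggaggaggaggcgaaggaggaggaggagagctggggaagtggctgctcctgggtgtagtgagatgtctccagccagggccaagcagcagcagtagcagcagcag
CDT1 (chr16:88803539-88803838, plus strand): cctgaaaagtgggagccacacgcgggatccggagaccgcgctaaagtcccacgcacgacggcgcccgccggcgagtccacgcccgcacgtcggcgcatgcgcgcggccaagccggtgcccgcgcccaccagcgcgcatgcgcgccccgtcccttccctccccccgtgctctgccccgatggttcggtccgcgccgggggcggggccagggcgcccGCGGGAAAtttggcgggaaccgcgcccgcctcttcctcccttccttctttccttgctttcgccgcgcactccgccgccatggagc
MCM7 (chr7:100101348-100101647, minus strand): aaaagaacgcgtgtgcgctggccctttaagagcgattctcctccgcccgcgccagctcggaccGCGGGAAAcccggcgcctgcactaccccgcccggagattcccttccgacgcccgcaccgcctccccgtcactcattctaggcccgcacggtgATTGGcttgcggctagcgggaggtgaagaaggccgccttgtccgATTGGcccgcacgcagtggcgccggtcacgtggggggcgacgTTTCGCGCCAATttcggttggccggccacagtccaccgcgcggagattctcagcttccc

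Positions are counted from the annotated start, whose first base is 1 and which −1 precedes. CDC6 held E2F letters beginning at 8, with CCAAT letters on either strand at −126, −103 and −50. The E2F letters began at −31 in GINS2, at −35 in CDT1 and at −12 in ORC3. MCM7 held E2F letters at −187 and −9, and the nearer copy shared its last base with a CCAAT box. MCM10 and CDC45, among the 4 members lowest with GSK458, held CCAAT letters but none of the E2F spellings searched for in the windows shown. Both windows shown do hold TTTGGCGG, which differs from the searched TTTGGCGC in its last letter alone, as do those of CDC6 and CDT1. That spelling was not searched over the genes, and whether it is a bound site was not tested. MCM10 and CDC45 therefore count as without E2F letters in the comparison below, which holds for the searched spellings alone. ORC3, the member nearest 0, held both kinds of letters. Members with E2F letters had a median difference with GSK458 of −1.43 (range −2.81 to −0.19, 22 genes) and those without had −1.29 (range −2.64 to −0.25, 21 genes). Both groups spanned nearly the same range. E2F letters were in the windows of 17 of 30 members that were at least 2-fold lower with GSK458 (56.7%) and of 5 of 13 that were not (38.5%).

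**Figure D3:**
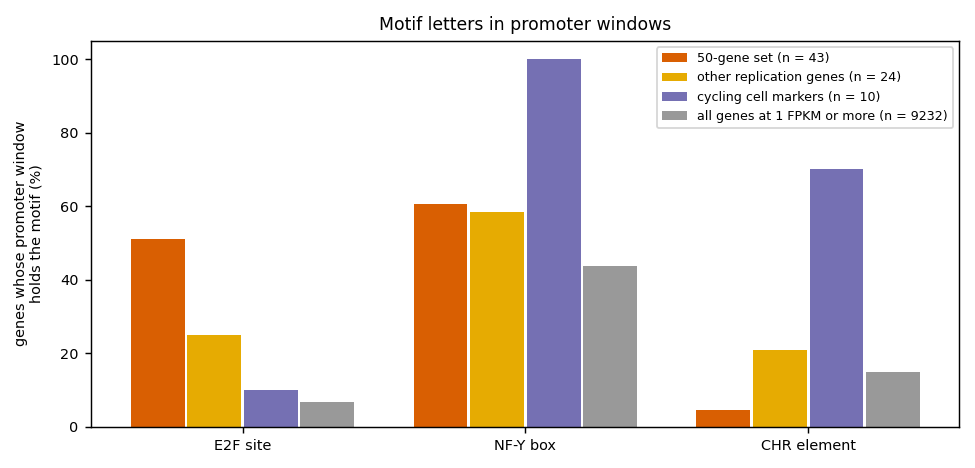
Share of genes (percent) whose RefSeq promoter windows hold the letters of an E2F site, of the CCAAT box (NF-Y box) or of the CHR element, for the replication genes (43 with a window), other nuclear replication genes (24), dividing-cell markers (10) and all genes at 1 FPKM or more (9232). E2F letters were in 51.2% of the replication genes and CHR letters in 70% of the markers.

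The subunits of ORC, which marks origins, separated into 2 classes. ORC1, the subunit that leaves chromatin in S phase, stood at 2.12 FPKM with both drugs, 1.09 with GSK458, 12.1 with As2O3 and 7.34 in the control, differences of −2.00 for GSK458 and −2.07 for GSK458 on top of As2O3. ORC6 stood at 2.11 FPKM with both drugs, 1.39 with GSK458, 12.2 with As2O3 and 9.28 in the control, with differences of −2.10 and −2.08. Both were low in the 2 libraries with GSK458 and high in the 2 without. The core subunits ORC2 to ORC5 differed from the control by −0.46 to −0.19 with GSK458, none 2-fold. ORC2 stood at 7.69 FPKM with both drugs, 7.92 with GSK458, 8.20 with As2O3 and 11.1 in the control. ORC5 had 8.70 FPKM with both drugs, 8.47 with GSK458, 9.82 with As2O3 and 12.0 in the control, and both were highest in the control. ORC3 stood at 7.11 FPKM with both drugs, 7.88 with GSK458, 11.4 with As2O3 and 9.11 in the control, highest with As2O3. ORC4, the most abundant of them, stood at 17.6 FPKM with both drugs, 17.0 with GSK458, 14.4 with As2O3 and 20.4 in the control. It was the one member that was higher with both drugs than with As2O3 alone, with a difference of 0.27, against −0.25 for GSK458 without As2O3. The mean level of ORC1 and ORC6 over that of ORC2 to ORC5 was 0.206 with both drugs, 0.12 with GSK458, 1.11 with As2O3 and 0.632 in the control.

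Of the helicase loaders, CDC6 showed a large difference with GSK458 and CDT1 one short of 2-fold. CDC6, the ATPase that joins ORC to load the helicase, stood at 2.32 FPKM with both drugs, 0.928 with GSK458, 14.8 with As2O3 and 12.5 in the control. Its GSK458 level was 7.40% of the control's, with differences of −2.81 without and −2.25 with As2O3. CDT1, which brings the helicase to ORC and is degraded in S phase, stood at 18.3 FPKM with both drugs, 12.0 with GSK458, 33.9 with As2O3 and 16.0 in the control. The differences were −0.39 for GSK458 against the control and −0.86 for both drugs against As2O3, so neither reached 2-fold. Geminin (GMNN), the inhibitor of CDT1, stood at 10.5 FPKM with both drugs, 9.62 with GSK458, 26.4 with As2O3 and 28.5 in the control, with differences of −1.47 and −1.25. The FPKM of CDT1 over that of GMNN was therefore 1.73 with both drugs, 1.24 with GSK458, 1.28 with As2O3 and 0.56 in the control, lowest in the control among the 4 libraries.

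With GSK458 all 6 subunits of the MCM2 to MCM7 helicase were 2-fold or more below the control, from −1.03 for MCM7 to −1.97 for MCM4. MCM2 stood at 14.5 FPKM with both drugs, 13.7 with GSK458, 31.4 with As2O3 and 35.3 in the control. MCM3, its neighbour in level, stood at 14.6 FPKM with both drugs, 14.4 with GSK458, 32.2 with As2O3 and 39.3 in the control. With GSK458 on top of As2O3, 4 of the 6 were at least 2-fold lower, MCM6 (−0.92) and MCM7 (−0.55) falling short of it. MCM4, one of the subunits that the CDC7 kinase phosphorylates, stood at 7.53 FPKM with both drugs, 6.37 with GSK458, 21.7 with As2O3 and 27.9 in the control. For MCM6 the levels were 8.25 FPKM with both drugs, 7.07 with GSK458, 16.5 with As2O3 and 24.7 in the control. MCM5 was highest of the 4 libraries with As2O3, at 22.3 FPKM with both drugs, 14.3 with GSK458, 49.7 with As2O3 and 38.2 in the control. MCM7, whose exons overlap AP4M1 on the opposite strand, had its own order, at 19.6 FPKM with both drugs, 34.4 with GSK458, 29.1 with As2O3 and 71.3 in the control. The level of MCM7 over the median of MCM2 to MCM6 was 1.36 with both drugs, 2.52 with GSK458, 0.928 with As2O3 and 2.02 in the control, so MCM7 stood relatively lower in both libraries with As2O3. The highest of MCM2 to MCM6 stood 2.97-fold above the lowest with both drugs, 2.27-fold with GSK458, 3.01-fold with As2O3 and 1.59-fold in the control, so their levels were closest in the control. MCM8, a paralog that acts in homologous recombination and is not part of this ring, stood at 3.59 FPKM with both drugs, 3.09 with GSK458, 9.16 with As2O3 and 6.88 in the control.

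**Figure D4:**
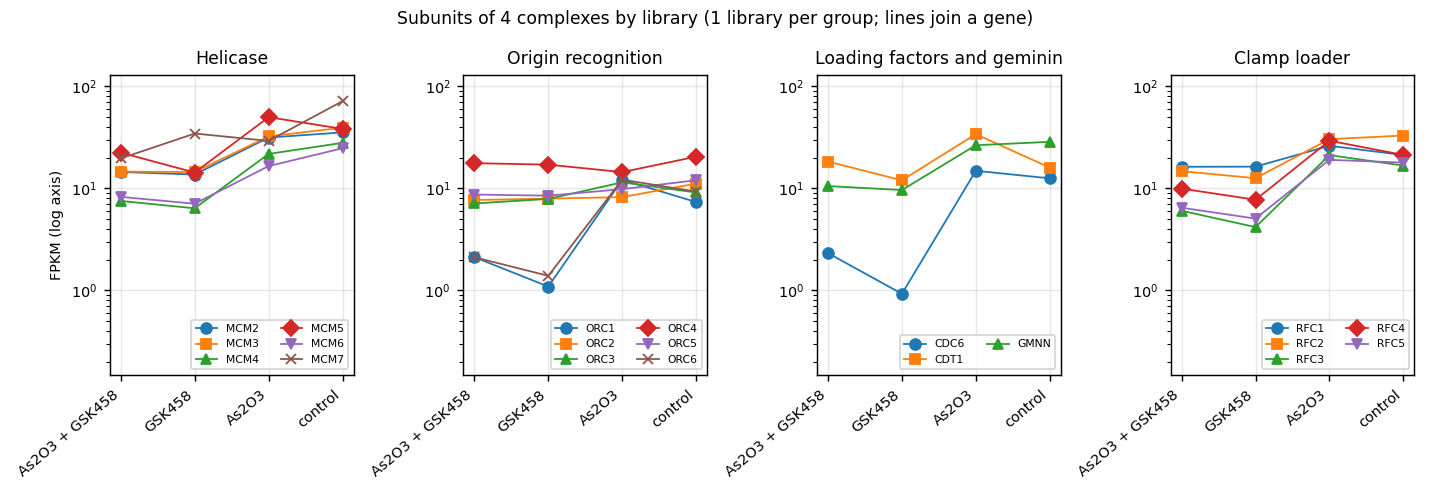
FPKM (log axis) of the subunits of the MCM helicase and ORC, the loading factors with geminin, and the RFC clamp loader in the libraries with both drugs, GSK458, As2O3 and the control. Lines join 1 gene across unrelated libraries. ORC1 and ORC6 leave the other ORC subunits in the libraries with GSK458, RFC1 lies above RFC3 to RFC5 there, and MCM7 is nearest to the other MCM genes with As2O3.

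The factors that turn the loaded ring into a moving helicase were among the lowest members with GSK458. CDC45, a fixed part of the active helicase, stood at 1.64 FPKM with both drugs, 0.894 with GSK458, 7.52 with As2O3 and 9.09 in the control, with differences of −2.41 and −1.69 without and with As2O3. MCM10, needed to start unwinding, stood at 1.18 FPKM with both drugs, 0.609 with GSK458, 8.31 with As2O3 and 9.02 in the control, with differences of −2.64 and −2.10. The level of CDC45 with GSK458 was 9.83% of the control's, and that of MCM10 6.75%. Of the 4 GINS subunits, GINS1, GINS2 and GINS4 were at least 2-fold lower in both readings. GINS2 stood at 3.94 FPKM with both drugs, 2.43 with GSK458, 11.1 with As2O3 and 17.6 in the control. For GINS4 the levels were 1.82 FPKM with both drugs, 0.872 with GSK458, 6.01 with As2O3 and 7.03 in the control. GINS1 had 2.90 FPKM with both drugs, 2.55 with GSK458, 11.2 with As2O3 and 12.7 in the control. The complex they form with GINS3 holds CDC45 to the ring. GINS3 stood apart from them at 5.95 FPKM with both drugs, 6.03 with GSK458, 9.17 with As2O3 and 11 in the control, a difference of −0.77 with GSK458. CDC7, the origin-firing kinase, and DBF4, its activating subunit, were lower by similar amounts (−1.21 and −1.45 without As2O3, −1.19 and −1.47 with it). CDC7 stood at 2.41 FPKM with both drugs, 2.85 with GSK458, 6.78 with As2O3 and 7.91 in the control. DBF4, whose pseudogene makes the value uncertain, stood at 2.53 FPKM with both drugs, 2.02 with GSK458, 8.76 with As2O3 and 7.26 in the control.

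At the fork, PCNA, the sliding clamp that tethers the polymerases and a common marker of S phase, stood at 25.3 FPKM with both drugs, 25.6 with GSK458, 65.3 with As2O3 and 101 in the control. Its level was nearly the same in both libraries with GSK458, so the difference was −1.94 against the control and −1.34 against As2O3, whose own level was below the control's. The clamp loader RFC was split between its large and small subunits. RFC1, the large subunit, stood at 16.3 FPKM with both drugs, 16.3 with GSK458, 26.1 with As2O3 and 21.2 in the control, a difference of −0.36 with GSK458, while RFC2 to RFC5 differed by −1.32 to −1.78, all at least 2-fold lower. RFC3, for instance, stood at 6.03 FPKM with both drugs, 4.17 with GSK458, 21.1 with As2O3 and 16.7 in the control. RFC4 stood at 9.93 FPKM with both drugs, 7.73 with GSK458, 29.2 with As2O3 and 21.2 in the control. RFC2, the most abundant small subunit in the control, had 14.7 FPKM with both drugs, 12.6 with GSK458, 30.3 with As2O3 and 32.8 in the control. In RFC5 the levels were 6.46 FPKM with both drugs, 5.06 with GSK458, 19 with As2O3 and 17.9 in the control. RFC3, RFC4 and RFC5 were highest with As2O3 and RFC2 in the control. RFC1 over the median of RFC2 to RFC5 was 1.98 with both drugs, 2.55 with GSK458, 1.04 with As2O3 and 1.08 in the control. CHTF18 takes the place of RFC1 in an alternative loader that serves cohesion, and DSCC1 is a further subunit of that loader. CHTF18 stood at 3.6 FPKM with both drugs, 2.50 with GSK458, 10.4 with As2O3 and 7.57 in the control, a difference of −1.29 with GSK458. DSCC1 stood at 0.932 FPKM with both drugs, 0.832 with GSK458, 6.68 with As2O3 and 6.36 in the control, a difference of −2.01.

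Of the 9 polymerase subunits, 6 were at least 2-fold lower with GSK458 (median −1.07) and 5 with both drugs against As2O3 (median −1.01). In polymerase alpha-primase, which lays down primers, the regulatory subunit POLA2 stood at 2.65 FPKM with both drugs, 2.18 with GSK458, 9.28 with As2O3 and 10.4 in the control, a difference of −1.84. The catalytic subunit POLA1 stood at 1.82 FPKM with both drugs, 1.60 with GSK458, 2.48 with As2O3 and 4.21 in the control, and its difference of −1.0 with GSK458 lay at the threshold. The primase subunits PRIM1 and PRIM2 differed by −0.94 and −0.91, short of 2-fold on the log2(FPKM + 1) scale. Their FPKM with GSK458 were 47.8% and 46.7% of the control's. PRIM1, which makes the RNA primer, stood at 5.45 FPKM with both drugs, 5.46 with GSK458, 12.0 with As2O3 and 11.4 in the control. PRIM2, the large primase subunit, had 4.98 FPKM with both drugs, 3.33 with GSK458, 10.5 with As2O3 and 7.13 in the control. In polymerase delta, which copies the lagging strand, the abundant subunit POLD2 stood at 35.4 FPKM with both drugs, 40.03 with GSK458, 79.3 with As2O3 and 96.3 in the control. Its catalytic subunit POLD1 stood at 10.2 FPKM with both drugs, 9.57 with GSK458, 22.7 with As2O3 and 17.9 in the control, a difference of −0.84. The accessory subunit POLD3 had 5.03 FPKM with both drugs, 4.53 with GSK458, 10.8 with As2O3 and 10.8 in the control, a difference of −1.09. In polymerase epsilon, the leading-strand enzyme, the catalytic subunit POLE stood at 7.78 FPKM with both drugs, 6.52 with GSK458, 12.6 with As2O3 and 14.8 in the control, a difference of −1.07. The accessory subunit POLE2 stood at 1.17 FPKM with both drugs, 1.32 with GSK458, 5.10 with As2O3 and 7.08 in the control, a difference of −1.80. POLA2 and POLE2 thus had larger differences than the catalytic POLA1 and POLE, as POLD2 (−1.25) and POLD3 had than POLD1. This did not hold for every accessory subunit. Outside the list of members, POLE3 (−0.82) and POLE4 (−0.88) had smaller differences than POLE, and POLD4 was higher with GSK458 (0.30).

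The enzymes that finish Okazaki fragments were lower by similar amounts. FEN1, the nuclease that removes the primer flap, stood at 4.73 FPKM with both drugs, 4.90 with GSK458, 17.8 with As2O3 and 22.4 in the control. LIG1, the ligase that seals the nick, stood at 6.76 FPKM with both drugs, 5.78 with GSK458, 23.6 with As2O3 and 25 in the control. Their differences were −1.99 and −1.94 with GSK458 and −1.72 and −1.67 with GSK458 on top of As2O3. The single-strand binding protein RPA, which also serves DNA repair and checkpoint signalling, had smaller differences in 2 of its 3 subunits. RPA1, its large subunit, stood at 25.4 FPKM with both drugs, 24.4 with GSK458, 42.6 with As2O3 and 37.9 in the control, a difference of −0.62. RPA2 had 16.6 FPKM with both drugs, 14.9 with GSK458, 22.6 with As2O3 and 23.6 in the control, a difference of −0.63. RPA3, the smallest subunit, reached 2-fold with 6.20 FPKM with both drugs, 5.56 with GSK458, 14.1 with As2O3 and 12.5 in the control, a difference of −1.04.

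Among scaffold and protection factors, CLSPN, the claspin adaptor of the checkpoint kinase CHK1, was the least abundant, with 0.632 FPKM with both drugs, 0.311 with GSK458, 2.65 with As2O3 and 3.88 in the control. In GSK458 its level was 8.03% of the control's, with differences of −1.90 without and −1.16 with As2O3. TIMELESS, which stabilises paused forks, stood at 3.75 FPKM with both drugs, 2.91 with GSK458, 10.2 with As2O3 and 11.8 in the control, a difference of −1.72. Its partner TIPIN had 3.81 FPKM with both drugs, 2.94 with GSK458, 6.62 with As2O3 and 6.54 in the control, a difference of −0.93. WDHD1, which links the helicase to polymerase alpha, stood at 3.06 FPKM with both drugs, 2.74 with GSK458, 9.36 with As2O3 and 7.90 in the control, a difference of −1.25. All 4 were lower in the 2 libraries with GSK458 than in the 2 without. In all, 14 members were not 2-fold lower with GSK458 on the log2(FPKM + 1) scale. They were ORC2 to ORC5, CDT1, MCM8, GINS3, RFC1, PRIM1, PRIM2, POLD1, RPA1, RPA2 and TIPIN. With a pseudocount of 0.1 FPKM in place of 1, 40 members were at least 2-fold lower (5.09% of all genes). The count fell to 24 of 50 with a pseudocount of 5 FPKM and to 34 with upper-quartile scaling. In these 2 settings the share of all genes was below the 3.87% of the main setting.

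As2O3 against the control, again 1 library each, is the first reading of arsenic for the same genes. Members were spread on both sides of 0, with 28 lower (48.6% of all genes) and 22 higher (51.2%), and a median difference of −0.11 against 0.011 over all genes. One member was at least 2-fold lower, MCM7 with −1.26 (1.41% of all genes were), and 1 was at least 2-fold higher, CDT1 with 1.04 (2.07% of all genes). The members' counts were thus near the shares over all genes. After MCM7, the lowest were PCNA (−0.62), GINS2 (−0.61), POLA1 (−0.58) and MCM6 (−0.55), and after CDT1 the highest were ORC1 (0.65), PRIM2 (0.50), RFC4 (0.44) and CHTF18 (0.41). Of the helicase ring 5 of 6 subunits were lower, and of the clamp loader 4 of 5 subunits were higher, all by less than 2-fold except MCM7. CDT1 had 33.9 FPKM with As2O3 and 16.0 in the control, whereas its call as 2-fold was lost with a pseudocount of 5 FPKM (0.89), with libraries rescaled to a common sum (0.98) and with upper-quartile scaling (0.995).

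Set against GSK458 alone, the library with both drugs gave the second reading of As2O3. There 39 of 50 members were higher (50.5% of all genes), with a median of 0.16 against 0.0026 over all genes. None was at least 2-fold higher or lower, where 0.644% and 0.318% of all genes were. CDC6 (0.78), MCM5 (0.61), GINS4 (0.59), ORC1 (0.58) and CDT1 (0.57) were highest, and MCM7 was lowest at −0.78, with 19.6 FPKM with both drugs and 34.4 with GSK458. MCM7 and CDT1, the extremes of the first reading, kept their direction in the second. In both readings 19 members were higher and 8 lower, where 30.1% and 28.3% of all genes were. Without GSK458 20 members were lower and with it higher (20.3% of all genes), and 3 showed the reverse (21.0% of all genes). Across the 50 genes the 2 readings correlated with a Pearson's r of 0.54 and a Spearman's rho of 0.43, against 0.23 and 0.26 over all genes. The dividing-cell markers were higher in 12 of 12 genes in both readings, with medians of 0.42 against the control and 0.85 against GSK458, and 4 of them were at least 2-fold higher in the second. Their part in the members' differences was not tested.

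**Figure D5:**
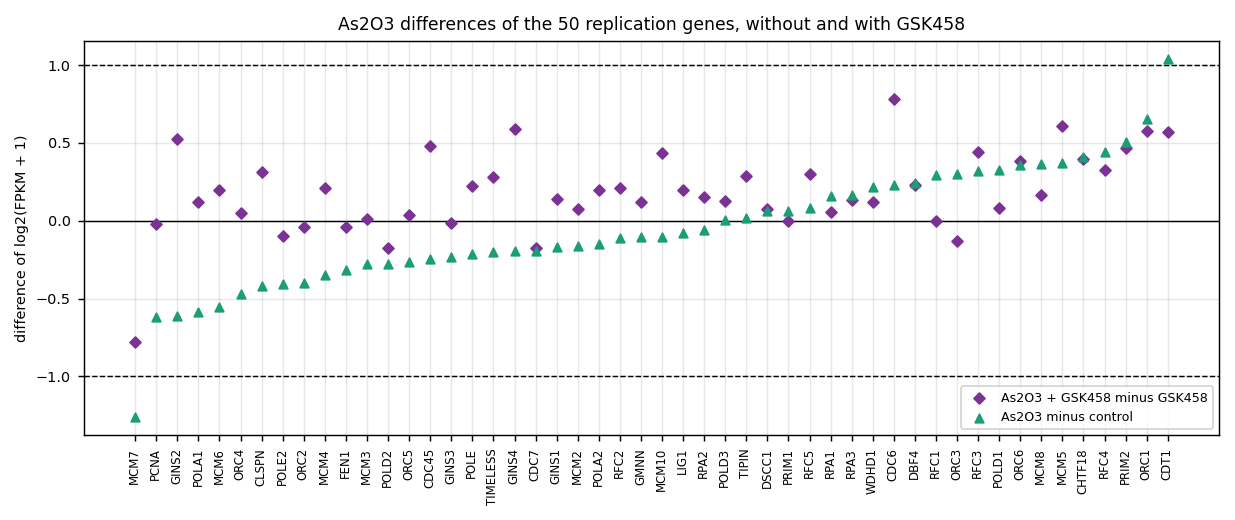
Difference of log2(FPKM + 1) for the 50 replication genes, sorted by As2O3 minus control (triangles), beside both drugs minus GSK458 (diamonds). Dashed lines mark 2-fold, which MCM7 and CDT1 pass in the first pair and no gene in the second. MCM7 is lowest in both.

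With both drugs, 49 of 50 members were lower than in the control (51.1% of all genes). The difference was at least 2-fold for 30 of them (4.31% of all genes), and 0 were at least 2-fold higher (3.25% of all genes). The median difference was −1.28, against −0.013 over all genes. MCM10 (−2.20), FEN1 (−2.03) and CDC6 (−2.03) were lowest. CDT1 was the exception, with 18.3 FPKM with both drugs and 16.0 in the control, a difference of 0.18. MCM7 was among the 10 lowest at −1.81, a larger difference than with either drug alone (−1.03 with GSK458 and −1.26 with As2O3). The comparisons with the control share that library.

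The departure from additivity is the difference of both drugs minus that of GSK458 minus that of As2O3, each against the control. It was above 0 for 36 of 50 members (49.6% of all genes), with a median of 0.24 against −0.004 over all genes. GINS2 alone reached 2-fold, at 1.14 (1.33% of all genes did above 0 and 2.05% below it), followed by GINS4 (0.79) and MCM6 (0.75), while CDT1 and ORC3 were lowest at −0.47 and −0.43. For GINS2 the differences from the control were −1.91 with both drugs, −2.43 with GSK458 and −0.61 with As2O3. A positive departure was not particular to the members. It was above 0 for 12 of 12 dividing-cell markers, with a median of 0.51. Since all 4 libraries enter this value, an error in the control or in any other library moves all members that it touches.

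Other genes of nuclear replication, a list of 29 that holds none of the members, were lower in part. With GSK458, 10 of 29 stood 2-fold or more below the control (3.87% of all genes), with a median of −0.61. None stood 2-fold or more above it (2.35% of all genes), and 3 were higher by less. RNASEH2A, the catalytic subunit of an enzyme that removes ribonucleotides from DNA, stood at 13.8 FPKM with both drugs, 8.65 with GSK458, 48.1 with As2O3 and 47.9 in the control, a difference of −2.34. DTL, the adaptor that targets CDT1 for degradation, stood at 2.24 FPKM with both drugs, 1.19 with GSK458, 13.0 with As2O3 and 9.34 in the control, a difference of −2.24, and RECQL4 and FBXO5 followed at −1.79 and −1.61. With GSK458 on top of As2O3, 9 of 29 were at least 2-fold lower (4.27% of all genes), with a median of −0.54. DTL, RNASEH2A, KIAA0101 (the PCNA-binding factor now named PCLAF) and FBXO5 were lowest at −2.11, −1.73, −1.68 and −1.62. With both drugs 8 stood 2-fold or more below the control (4.31% of all genes). With As2O3, 1 of the 29 was 2-fold apart, where 1.41% of all genes were lower and 2.07% higher. It was the small polymerase epsilon subunit POLE4, with 6.44 FPKM with both drugs, 9.64 with GSK458, 8.16 with As2O3 and 18.6 in the control, a difference of −1.10. Its order across the libraries was that of MCM7, lowest with both drugs and highest in the control. With As2O3 on top of GSK458 none was 2-fold apart (0.644% of all genes were higher and 0.318% lower), the extremes being RNASEH2A at 0.62 and POLE4 at −0.52. The 6 genes of mitochondrial DNA replication, which runs on separate enzymes, had none 2-fold apart in any of the 5 comparisons. Over all genes 0.318% to 4.31% were 2-fold lower and 0.644% to 3.25% higher in these comparisons. Their median with GSK458 was −0.11, and the mitochondrial polymerase POLG stood at 15.2 FPKM with both drugs, 14.7 with GSK458, 23.9 with As2O3 and 17.2 in the control.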

How the data were processed

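RNA of 4 TOV21G cultures was sequenced, 1 per group, from stranded poly(A) libraries per the labels' protocols. The authors deposited 1 table of FPKM values for 26255 symbols. Without giving their roles, the submitters' processing notes name Cuffdiff 2.2.1, SAMtools 0.1.18, TopHat2 2.1.1 and Bowtie2 2.2.8, and the build hg19. The sources used here do not give the annotation, the strand setting or the treatment of multi-mapping reads. Depth is unknown and no interval was computed. The relative library size came from genes below 0.5 FPKM in the control. It was the most common ratio to the control, rounded to 3 decimals and sought from 0.7 to 1.4. That ratio was shared by 350 to 362 of 797 to 840 genes.

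Values were used as deposited, as log2(FPKM + 1), for genes whose mean reached 1 FPKM, and without replicates nothing was tested. Members and gene lists were chosen with earlier results of these data known. All members could be named, and of other replication genes at most 4 each way per comparison that were at least 2-fold apart (the extremes where none was). KIAA0101 and C10orf2 were matched through older symbols of PCLAF and TWNK. The script was tested on simulated data. Python 3.11.15 with pandas 2.3.3 was used. Promoter windows and names came from RefSeq (GRCh38.p14) and GENCODE 29, whose build is not that of the files. Alternatives were no filter, a filter at a mean of 5 FPKM, pseudocounts of 0.1 and 5 FPKM, 3 scalings (a sum of 1000000, median of ratios, upper quartile) and a threshold of 1.5-fold.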

Additional observations from a re-analysis of the deposited data

Results flagged for a closer look

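The difference of As2O3 had opposite signs without and with GSK458 for 23 of 50 members (46%), near the 41.3% over all genes, and the members' medians were 0.16 with GSK458 present and −0.11 without it. GINS2 was the one member with a difference of at least 0.5 each way, at 0.52 for both drugs against GSK458 (3.94 and 2.43 FPKM) and −0.61 for As2O3 against the control (11.1 and 17.6 FPKM). The difference of GSK458 had opposite signs for 1 member (28.5% of all genes), ORC4, at 0.27 with As2O3 present and −0.25 without it. With 1 library in each group, these differences between settings were not tested.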

How the results depend on the processing

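The results were recomputed under 8 other settings, 115 values in all, and 101 stayed within 1.5 times of the value reported. The 3 medians of the libraries with GSK458 against those without stayed below 0 in each of the 7 settings for which medians were recomputed. Dropping the filter could not change a member's value, since every member passed it, and its values count among the 101. A pseudocount of 5 FPKM shrank low genes by construction. It left 15 members at least 2-fold lower with both drugs against As2O3 and 17 with both drugs against the control, medians of −0.81 for both drugs against the control and 0.086 for both drugs against GSK458, and 0 members 2-fold higher with As2O3. That last count was also 0 with a sum of 1000000 (2.03% of all genes) and with upper-quartile scaling (1.94%). The As2O3 median was −0.19 with a sum of 1000000 and −0.058 with a mean of at least 5 FPKM, where 41 members remained. With a threshold of 1.5-fold, 2 members were higher (CDT1, ORC1) and 3 lower (GINS2, MCM7, PCNA) with As2O3 against the control. Over all genes 7.43% were then higher and 6.45% lower, so the members' counts were near these shares. For both drugs against GSK458, 3 members were higher at 1.5-fold (CDC6, GINS4, MCM5, 2.19% of all genes) and 1 lower (MCM7, 1.53%). There a pseudocount of 0.1 FPKM made 1 member at least 2-fold higher (CDC6, 1.39% of all genes). Rescaling to a sum of 1000000 moved the median of all genes to −0.10 with GSK458 against the control. Then 40 members were at least 2-fold lower (5.26% of all genes), with a median of −1.5. The same count was 24 with a pseudocount of 5 FPKM and 34 with upper-quartile scaling. No paired analysis was possible because each group had 1 library, and no library could be left out.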
